A study of Homo sapiens with 21 samples.

Results

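Histone messages of the replication-dependent kind were followed across 19 RNA sequencing libraries of THP1 cells, a human acute monocytic leukemia line. The members were the rows of the deposited gene table whose symbols carry the systematic names of the clustered histone genes (H1-, H2AC, H2BC, H3C or H4C followed by a number), and the rule found 74 of 20423 genes. They comprised 10 linker histone H1 genes, 17 H2A genes, 19 H2B genes, 13 H3 genes and 15 H4 genes. The rule also takes H1-10, a linker histone that is known to be made outside S phase from polyadenylated messages. It is given apart, and sums below are over 72 members. These include H1-8 and H1-7, taken by symbol alone, which lie on chromosomes 3 and 12, away from the clustered genes. Whether they depend on replication was not checked.

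Replication-dependent histones package newly copied DNA, so cells make their messages mainly in S phase. Their messages are known to end in a short stem-loop that the protein SLBP binds, in place of a poly(A) tail, and the genes lie in clusters where they are transcribed together. Some members, among them H2BC12, H2BC21, H2AC6, H2BC5 and H1-2, are known to give polyadenylated messages as well, mostly in cells that have stopped dividing or have differentiated. The libraries were made with an mRNA kit, and how the RNA was selected is not given in the sources used here.

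All groups were THP1 cells, with no drug or time course named. The knockdown arm held 2 libraries of an shRNA control and 3 libraries for each of 2 hairpins against IRF2BP2, a transcriptional cofactor, carried in the pLKO.1 vector (shRNA 1 and shRNA 2). The knockout arm held 2 libraries of a KO control and 2 libraries for each of 2 single-cell clones lacking ATF7 or JDP2, a pair of basic leucine zipper transcription factors, made with Lenti-CRISPRv2. Each knockout therefore rests on 2 clones, each of which may carry traits of its founder cell. A single wild type library belonged to neither arm. Whether libraries of a group came from separate cultures is not in the labels. The p-values therefore reflect only how far these libraries varied, and that variation may be technical. In bulk RNA, fewer cells that make a message and less message per cell cannot be told apart.

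Recovered reads in genes ranged from 28650241 to 60196382 per library. IRF2BP2 had 14859 to 21364 normalized counts (reads divided by the authors' size factor of the library) in the 5 control libraries, 9456, 11110 and 9802 with shRNA 1, and 12587, 16649 and 25651 with shRNA 2. The second of the shRNA 2 values lay within the range of the controls. The highest was above every control, so it is called the library labelled shRNA 2 replicate 3 here. ATF7 had 300 and 537 normalized counts in the KO control and 363 to 645 in its clones, and JDP2 had 5085 and 3438 in the KO control and 3158 to 5693 in its clones, though a total message count does not check a CRISPR edit. In 3 libraries many genes lay more than 2-fold from their median over the 19 libraries, namely 48.5% of genes in shRNA 1 replicate 3, 25.6% in the library labelled shRNA 2 replicate 3 and 38.2% in JDP2 clone 1 replicate 2, against 3.18% to 14.8% elsewhere. All 12 monocytic markers were measured, with a summed level of 60877 to 232316 per library. The erythroid list summed to 14.1 to 213, the epithelial list to 2.41 to 131 and the stromal list to 26.4 to 471. The lymphoid list summed to 5331 to 30875, most of it NKG7.

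The stem-loop and the alternative poly(A) end of some members named below are shown first, since a polyadenylated end sets some of them apart from the typical histone message. In the GENCODE v29 transcripts, 30 members held the stem-loop pattern GGNNCTTTNNAGNNCC on the sense strand, while 0.666% of 19684 coding genes held the pattern anywhere in a transcript. A further feature, an AATAAA or ATTAAA signal in the last 50 bases of an annotated coding transcript, downstream of any stem-loop, was found for 24 members, and 19 members had both. Neither was found for 39 members, many of whose models stop with the coding sequence. In the stem-loops below the capitals mark the paired arms, in the transcript's own direction.
H2AC6 stem-loop: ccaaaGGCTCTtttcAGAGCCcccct
H2BC5 stem-loop: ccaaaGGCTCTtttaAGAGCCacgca
H2BC21 stem-loop: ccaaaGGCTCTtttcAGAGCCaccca
H3C10 stem-loop: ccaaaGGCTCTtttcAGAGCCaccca
H4C9 stem-loop: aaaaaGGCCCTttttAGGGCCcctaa
H4C11 stem-loop: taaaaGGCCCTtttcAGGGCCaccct
Both H4 genes shown share 1 pair of arms, and the H2A, H2B and H3 genes share another. The last 30 bases of an annotated transcript of 4 of these genes carry a poly(A) signal, in capitals.
H2AC6 end: agcctggcatgaggtAATAAAaggtaatgc
H2BC5 end: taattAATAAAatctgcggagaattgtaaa
H2BC21 end: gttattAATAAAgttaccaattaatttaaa
H3C10 end: atgactaAATAAAatctgtataatccccac
No such end was found for H4C9 or H4C11, nor for H1-2, H2BC12 and H2AC20, whose models (642, 381 and 390 bases) hold no stem-loop either. RefSeq gives H2BC12 2 transcripts and the longer span chr6:27138293-27146858, and the sequences of these transcripts were not searched. The abundant member H2AC25, whose sequences are not printed, held both a stem-loop and a poly(A) signal at its end. All this describes the models only and says nothing about the messages themselves.

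The members are strongly clustered. In RefSeq (GRCh38.p14), with which all 74 members were matched, 55 lie on chromosome 6, of which 32 are within chr6:26017032-26285534 and 16 within chr6:27807479-27893891. A further 13 lie on chromosome 1, where 11 are within chr1:149782689-149887965. Many H2A and H2B genes stand head to head, and 12 such H2A and H2B pairs had start sites 193 to 247 bases apart, so that each pair shares its promoter region.

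Promoters were compared with 5 motifs in the 250 bases before the RefSeq start, on both strands and with overlapping matches allowed between motifs. Of 67 members with a promoter in the table, 65.7% held TATAAA, against 13% of 27305 genes, and 83.6% held CCAAT, against 37%. The octamer ATTTGCAT was in 38.8% of members and 2.03% of all promoters, and was unevenly spread over the classes, with 14 of 18 H2B and 11 of 16 H2A promoters, 1 of 11 H3 promoters and 0 of 9 H1 and 0 of 13 H4 promoters. TGACGTCA, the letters that ATF and CREB proteins are known to bind, was in 9 members (13.4%) and 2.03% of all promoters. TGACTCA, the AP-1 letters, was in 0 of 67 members and 5.19% of all promoters. Head-to-head H2A and H2B start sites lie 193 to 247 bases apart, so 1 match between them can count for both genes. The octamer printed below for H2BC21 was also counted for H2AC20, whose own 120 printed bases hold none. TGACGTCA was counted for both H2AC14 and H2BC14. The member counts of these motifs are therefore not counts of separate sites. The pair of promoters below faces in opposite directions from 1 shared stretch between H2BC21 and H2AC20, which later showed differences of opposite sign, and H2BC12, the most abundant of the 72 members, carries 4 of the 5 motifs. Capitals mark the motifs named above or their reverse complements.
H2BC21, chr1:149886683-149886802, minus strand: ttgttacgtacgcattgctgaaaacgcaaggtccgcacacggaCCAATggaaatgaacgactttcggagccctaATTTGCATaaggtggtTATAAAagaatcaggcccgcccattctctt
H2AC20, chr1:149886798-149886917, plus strand: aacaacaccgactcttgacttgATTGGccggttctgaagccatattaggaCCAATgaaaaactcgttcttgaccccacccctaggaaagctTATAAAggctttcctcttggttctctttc
H2BC12, chr6:27146859-27146978, minus strand: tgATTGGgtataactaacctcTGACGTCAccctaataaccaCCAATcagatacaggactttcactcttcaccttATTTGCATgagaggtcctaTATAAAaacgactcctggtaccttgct
H2AC6, chr6:26124052-26124171, plus strand: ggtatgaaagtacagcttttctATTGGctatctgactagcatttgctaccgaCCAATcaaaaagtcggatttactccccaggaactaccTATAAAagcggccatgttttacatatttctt
These are the 120 bases before each start in GRCh38.p14. A match is a run of letters and not a shown binding site.

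Levels of most members were low, with a median member mean of 11.2 normalized counts. One member, H3C4, was at 0 in all 19 libraries, 18 members were at 0 in 10 or more, and 36 were at 0 in at least 1. A normalized count of 1.92 to 5.59 corresponded to 3 reads, which is the level that a count of 0 allows. A mean of at least 10 was reached by 39 members and at least 100 by 9. By class, 5 of 10 H1, 11 of 17 H2A, 13 of 19 H2B, 6 of 13 H3 and 4 of 15 H4 genes had a mean of at least 10. The H4 class was the lowest, with a median member mean of 4.5, against 28.2 for H2B, 18 for H2A, 8.87 for H1 and 6.87 for H3.

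The replication-independent linker histone H1-10 had a mean of 25278 normalized counts. Per kilobase of GENCODE exon, H1-10 had 16773 normalized counts, H2BC12 2189.85, H1-2 705 and H2AC20 595, where the short models of the last 3 raise the value per kilobase if reads came from longer messages. The 72 members that enter the sums held 0.00533% to 0.0288% of the total normalized counts of a library. Among these 72, H2BC12 alone made up 23.8% of the sum of means, H1-2 12.9%, H2AC25 8.55% and H2AC6 7.57%, and the first 10 genes made up 75.1%.

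Some counts cannot be assigned to a single gene. In 7 members at least 90% of all 50-base stretches also occurred in another member (H4C14, H4C15, H4C12, H3C14, H3C15, H2AC18 and H2AC19), and 81.2% did in H4C11, 83.7% in H2AC14 and 74.1% in H2BC12. Exons of 15 members overlapped another gene in part or whole. The overlap covered 100% of the exon bases of H3C4, at 0 in all 19 libraries, and of H2AC15. It covered 98% in H2AC7, at 0 in 17 libraries. A count of 0 in members with overlapping or shared sequence need not mean a silent gene. Values of these members are uncertain, also because the strand setting of the counting is not given in the sources used here.

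Members at 0 were fewest in the libraries with the most genes detected. In the 3 libraries with the most genes detected (18490 to 19046 genes), namely KO control replicate 2, shRNA 1 replicate 3 and ATF7 clone 2 replicate 1, 5 to 9 members were at 0. In the other 16 libraries, with 14263 to 17355 genes, 14 to 25 members were at 0. The fewest members at 0, 5 of them, were in ATF7 clone 2 replicate 1, which also had the highest stromal and erythroid marker sums (471 and 213). The part of those sums in it was not tested.

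The summed level of the 72 members was 1760 to 2851 in the 5 control libraries (mean 2259.97 ± 415 SD). It was 2893, 3147 and 2407 with shRNA 1, and 2315, 4824 and 12915 with shRNA 2. In the ATF7 clones it was 2412, 3302, 2365 and 3145, and in the JDP2 clones 2697 and 7823 for clone 1 and 2299.87 and 2651 for clone 2. Most libraries thus lay between 1760 and 3302, and shRNA 2 replicate 2 (4824) lay above that range. The library labelled shRNA 2 replicate 3 and JDP2 clone 1 replicate 2 lay far above it. Relative to the median of the 19 libraries their sums were 4.87-fold and 2.95-fold of it.

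**Figure D1:**
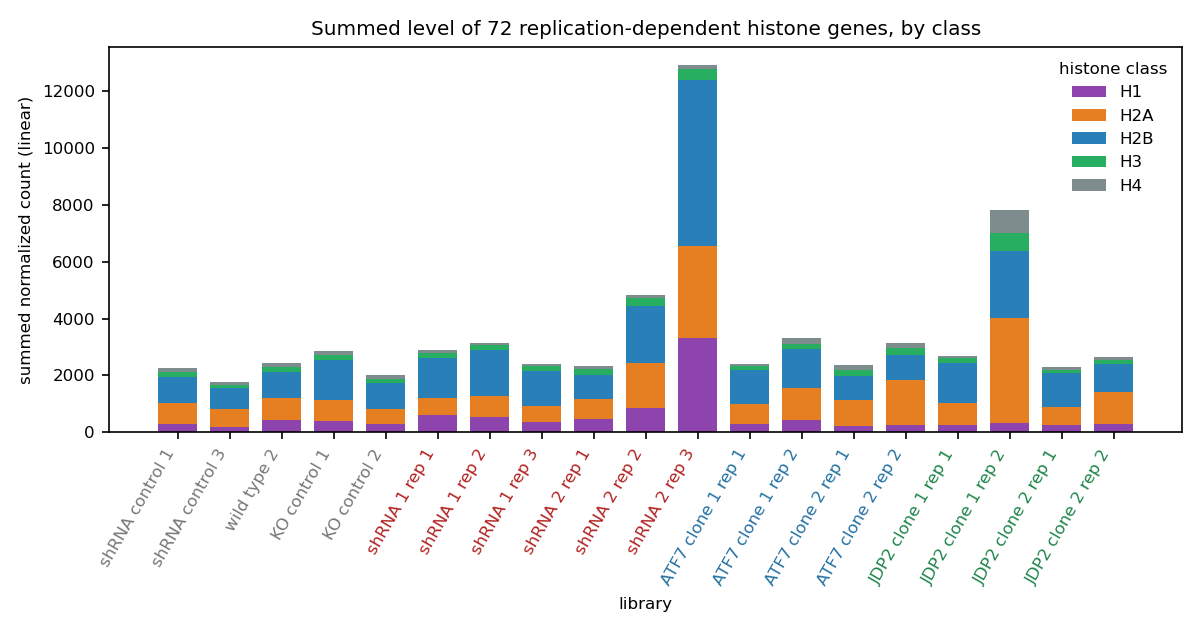
Stacked bars give the summed normalized count (linear axis) of the 72 members in each of 19 libraries, split by histone class, with label colours for controls (grey), IRF2BP2 hairpins (red), ATF7 clones (blue) and JDP2 clones (green). The library labelled shRNA 2 replicate 3 (12915) and JDP2 clone 1 replicate 2 (7823) stand above the rest, the first mainly in H2B, H1 and H2A, the second mainly in H2A and H2B.

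Different genes were high in these libraries. In the library labelled shRNA 2 replicate 3, 5 genes named after their values were seen (H1-2, H2AC6, H2BC5, H2BC12 and H2BC21) held 84.5% of the sum over the 72 members, against 23.7% to 66.6% in the other libraries. Relative to the median library, H2AC6 was 24.5-fold, H1-2 13.1-fold and H2BC5 12.3-fold of it there, while H4C9 was 1.09-fold and H2AC20 0.768-fold. In JDP2 clone 1 replicate 2, by contrast, H4C9 was 12.9-fold, H2AC21 10.1-fold, H4C11 9.71-fold and H3C7 9.32-fold of the median, and H1-2, at 74.6 normalized counts, was 0.301-fold of it. That library was the highest of all 19 for 34 of the 71 genes with a read among the 72, and 26 of 37 genes with a mean of at least 10 were more than 2-fold above their median. Of all genes with a mean of at least 10, 38.2% lay more than 2-fold above or below their median in that library. The share of all genes with their highest level there was not counted, so these member counts do not show a trait of histone genes. The summed level of 48 S-phase replication genes differed as well. It was 222285 in the library labelled shRNA 2 replicate 3 and 507013, the highest of all, in JDP2 clone 1 replicate 2, with a median of 354575 over the 19 libraries. The monocytic marker sum was highest in the library labelled shRNA 2 replicate 3 (232316) and next highest in shRNA 2 replicate 2 (189635), against 61376 to 125339 in the controls. The part of these differences in the histone levels was not tested.

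**Figure D2:**
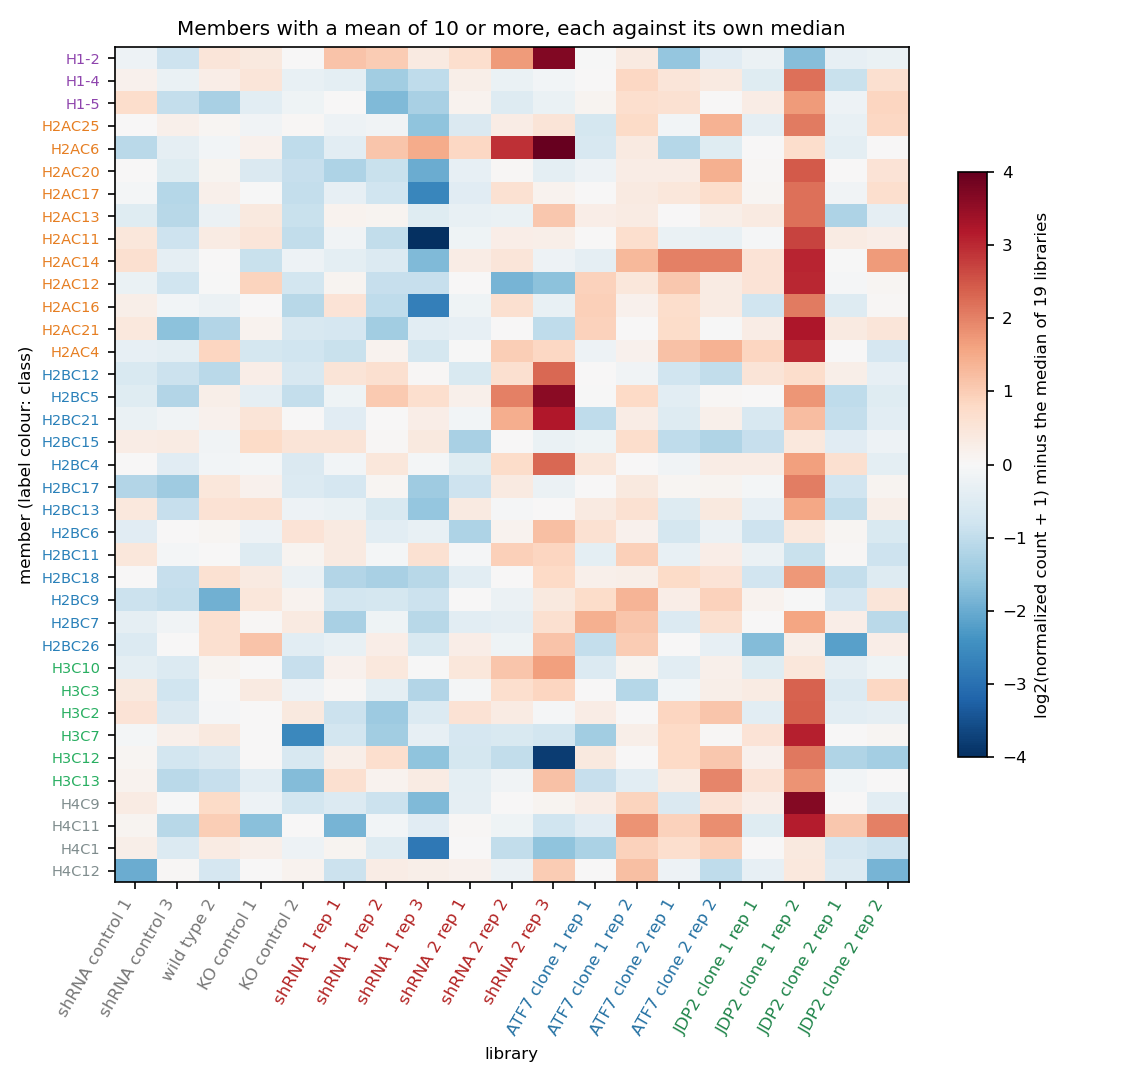
Each row is 1 of 37 members with a mean of at least 10, coloured by its log2(normalized count + 1) minus its own median over the 19 libraries in columns, and ordered by class and level. The column of JDP2 clone 1 replicate 2 is red for most H2A, H3 and H4 members and blue for H1-2, and the column of the library labelled shRNA 2 replicate 3 is dark red for H1-2, H2AC6, H2BC5 and H2BC21.

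For the IRF2BP2 knockdown against the shRNA control, 32 members passed the filter (a mean of at least 10 normalized counts over the libraries of the fit), and 0 passed the test, which was limma on log2(value + 1) with Benjamini-Hochberg adjusted p under 0.05. Across all genes the test called 1.79% of 12738, 1.54% higher and 0.251% lower. At an unadjusted p under 0.05 there were 5 members, all with higher levels in the knockdown, and they were H1-2, H2AC6, H2BC5, H2BC12 and H3C10. This is 15.6% of the members tested, near the 14% of all genes at that threshold. The median log2 difference of the 32 members was 0.18, against -0.03 for all genes tested, with 18 members above 0 and 14 below.

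H1-2 is a main linker histone of cycling somatic cells. It had 215 and 139 normalized counts in the shRNA control, 543, 506 and 320 with shRNA 1, and 392, 804 and 3252 with shRNA 2. All 6 libraries labelled as knockdown were above both shRNA control libraries, though wild type (346) and KO control (322 and 248) reached into the range of the knockdown. H1-2 differed by 1.95 ± 0.68 (SE) on the log2 scale (limma adjusted p = 0.206).

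H2AC6, an H2A gene, had 45.8 and 76.8 normalized counts in the shRNA control, 73.4, 215 and 278 with shRNA 1, and 175, 758 and 2422 with shRNA 2. The lowest knockdown library lay just below the higher control, and the remaining 5 lay above both. Wild type (91.2) and KO control replicate 1 (111) lay within the knockdown range. H2AC6 differed by 2.48 ± 0.96 (SE) on the log2 scale, the largest of all members tested (limma adjusted p = 0.264). Its head-to-head neighbour H2BC4 differed by 0.69.

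H2BC5, an H2B gene with both a stem-loop and a poly(A) end, had 55.7 and 33.7 normalized counts in the shRNA control, 68.8, 162 and 125 with shRNA 1, and 90, 316 and 961 with shRNA 2. No knockdown library overlapped the shRNA control, and wild type, at 91.2, lay within the knockdown range. H2BC5 differed by 2.06 ± 0.79 (SE) on the log2 scale (limma adjusted p = 0.259).

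H2BC12, the most abundant H2B gene, had 461 and 385 normalized counts in the shRNA control, 1001, 1098 and 719 with shRNA 1, and 457, 1085 and 3440 with shRNA 2. One knockdown library, shRNA 2 replicate 1, lay between the controls, and KO control replicate 1 (833) lay within the knockdown range. H2BC12 differed by 1.32 ± 0.56 (SE) on the log2 scale (limma adjusted p = 0.312). H3C10, the most abundant H3 member, had 59.7 and 53.4 normalized counts in the shRNA control, 89.9, 107 and 79 with shRNA 1, and 109, 173 and 252 with shRNA 2, with no overlap between these groups, while wild type (84.8) and KO control replicate 1 (79.3) lay within the knockdown range. H3C10 differed by 1.12 ± 0.45 (SE) on the log2 scale (limma adjusted p = 0.290).

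**Figure D3:**
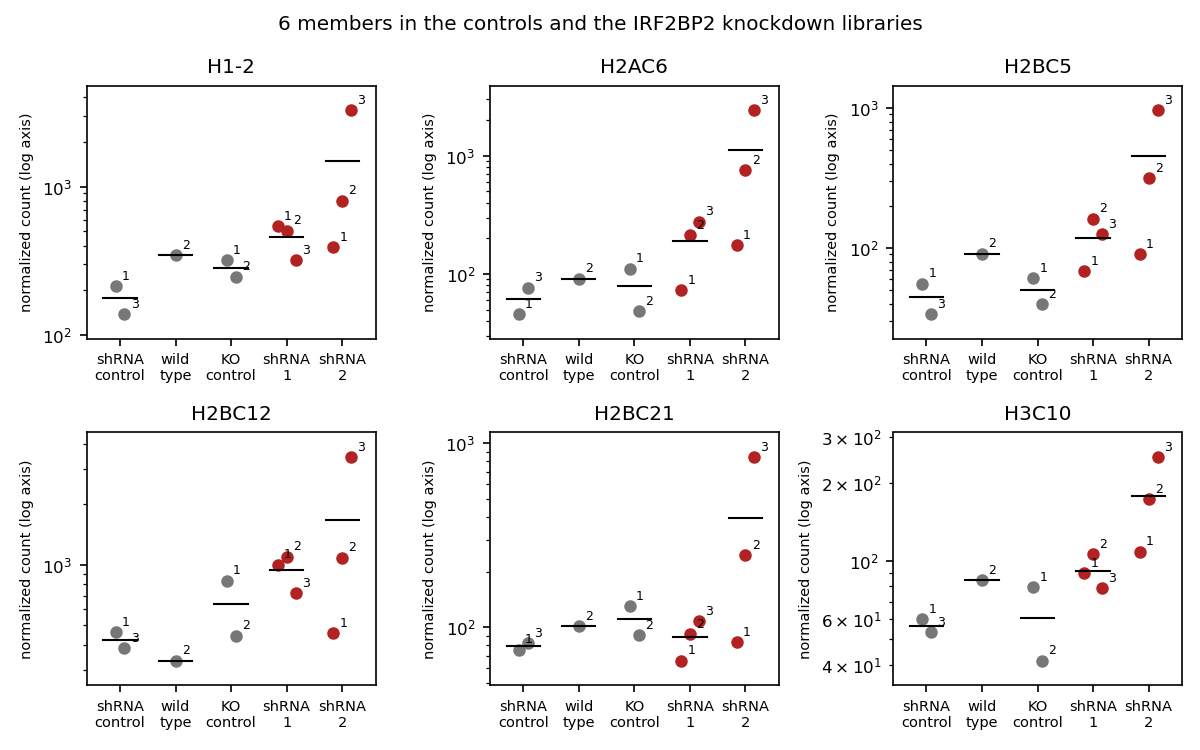
Points give the normalized count (log axis) of 6 members in each control and knockdown library, numbered by replicate, and bars give group means. In H1-2, H2BC5 and H3C10 every knockdown library (red) lies above both shRNA control libraries, and the library labelled shRNA 2 replicate 3 is the highest in each of the 6 panels.

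Other abundant members had smaller differences. H2AC25, a replication-dependent H2A gene outside the main clusters, had 237 and 270 normalized counts in the shRNA control, 204, 213 and 77.6 with shRNA 1, and 159, 294 and 343 with shRNA 2, with a log2 difference of -0.38 ± 0.48 (SE). H4C9 had 61.7 and 47.8 in the shRNA control and 13.7 to 53.1 in the knockdown libraries, with a log2 difference of -0.72 ± 0.55 (SE). The ranges overlapped for both genes. H3C3 differed by 0.20 ± 0.62 (SE) and H1-10 by -0.40 ± 0.50 (SE).

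By class, the median log2 difference was 0.06 for 4 H1 members, -0.38 for 9 H2A, 0.46 for 12 H2B, 0.48 for 4 H3 and -0.72 for 3 H4, and 9 of 12 H2B members were above 0, against 3 of 9 H2A members. For 4 members (H1-2, H2BC5, H2BC9 and H3C10) every knockdown library was higher than both control libraries, which is 12.5% of those tested, against 11.1% of all genes, and for 0 members every knockdown library was lower, against 11.2% of all genes. The 14 tested members with an annotated poly(A) end had a median log2 difference of 0.38, and the 18 without one -0.03, a contrast that was not tested.

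The members' median turned negative in several settings. It was -0.18 after quantile normalization, -0.13 without the library labelled shRNA 2 replicate 3, -0.15 without shRNA control replicate 3 and -0.06 with all 5 control libraries, and it was 0.46 without shRNA control replicate 1. The 5 members above kept positive log2 differences without the library labelled shRNA 2 replicate 3, at 1.49 for H1-2, 1.91 for H2AC6, 1.58 for H2BC5, 0.98 for H2BC12 and 0.92 for H3C10. With all 5 control libraries, limma called H2AC6 (2.23, adjusted p = 0.0378) and H2BC5 (1.78, adjusted p = 0.0447), where 7.54% of genes were called higher. DESeq2 on the recovered reads called H1-2 (adjusted p = 0.0125) and H2BC5 (adjusted p = 0.0153), where 4.15% of genes were called higher and 1.21% lower. In edgeR 0 members were called, with 0.699% of genes higher and 0.275% lower. The authors' deposited table for the knockdown holds 5 members at an adjusted p under 0.05, all higher (H2AC6 with a log2 fold change of 2.16, H2BC5 1.73, H1-2 1.57, H2BC12 1.2 and H3C10 0.96), where 10.6% of genes were higher. Without the 3 libraries far from the median, limma called H1-2 (1.65, adjusted p = 0.00425), where 6.35% of genes were called higher. The call of these members depended on the control set and the model.

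For the ATF7 knockout against the KO control, 0 of 38 members tested were called by limma, where 0.25% of 13208 genes were called, and 0 members had an unadjusted p under 0.05, against 7.09% of all genes. Both edgeR and DESeq2 called 0 members as well. Of all genes edgeR called 0% higher and 0.25% lower, and DESeq2 0.0909% higher and 1.6% lower. The members' median log2 difference was 0.41, against 0.04 for all genes, and 30 of 38 were above 0. After quantile normalization the median was -0.02 with 18 of 38 above 0, so the direction of the group did not hold in each scaling. The median was 0.71 without KO control replicate 1 and 0.25 without KO control replicate 2. In 6 members every knockout library was higher than both controls (H2AC20, H1-10, H2AC4, H2AC16, H1-5 and H2AC17), which is 15.8% of those tested, against 7.82% of all genes, and 4 of them were H2A genes. In 0 members were all knockout libraries lower, against 10.6% of all genes.

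H4C11, an H4 gene, showed the largest difference. It had 2.17 and 9.22 normalized counts in the KO control, 6.47 and 34.7 in clone 1, and 18.5 and 36 in clone 2. One knockout library lay between the controls, and several of these levels are worth only a few reads. H4C11 differed by 1.88 ± 1.04 (SE) on the log2 scale (limma adjusted p = 0.753), or by 1.04 without KO control replicate 1 and 2.72 without KO control replicate 2.

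H2AC14 had 8.69 and 14.5 normalized counts in the KO control, 12.9 and 43.4 in clone 1, and 71.7 and 72 in clone 2, with a log2 difference of 1.80 ± 0.88 (SE) and a limma adjusted p of 0.714. H2AC4 had 4.35 and 3.95 in the KO control, 6.47 and 8.68 in clone 1, and 18.5 and 21.6 in clone 2, with a log2 difference of 1.38 ± 1.05 (SE) and a limma adjusted p of 0.802. Both were higher in clone 2 than in clone 1. H2AC20, a more abundant H2A gene, had 129 and 101 normalized counts in the KO control, 169 and 236 in clone 1, and 236 and 521 in clone 2, with a log2 difference of 1.21 ± 0.62 (SE) and a limma adjusted p of 0.727.

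Of the 5 members described for the knockdown, H1-2, H2BC12 and H2AC6 had log2 differences of -0.60, -0.28 and -0.06 here, and H2BC5 and H3C10 of 0.76 and 0.29. The authors' deposited table for ATF7 called 0 members, where 0.0315% of genes were higher and 0.284% lower. The 4 tested members with TGACGTCA in the promoter had a median log2 difference of 0.73, and the 30 without it 0.41. With so few members this is a description only.

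For the JDP2 knockout against the same KO control, 0 of 38 members were called by limma, where 0.674% of 13208 genes were called, and 2 members (5.26%), H2AC20 and H4C11, had an unadjusted p under 0.05, against 16.8% of all genes. Both edgeR and DESeq2 called 0 members as well. Of all genes edgeR called 0.0151% higher and 0.909% lower, and DESeq2 1.14% higher and 2.84% lower. The members' median log2 difference was 0.51, against 0.00486 for all genes. By class, the median was 1.07 for H2A, where 11 of 11 members were above 0, 0.49 for H3 (6 of 6 above 0) and 0.53 for H4 (2 of 4 above 0), while 4 of 12 H2B members were above 0, with a median of -0.13. The H2B median was 0.02 after quantile normalization and 0.02 without JDP2 clone 1 replicate 1. Equal library totals moved the median of all genes to -0.23 and gave an H2A median of 0.85 and an H2B median of -0.36.

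Much of this rested on JDP2 clone 1 replicate 2, which also had the lowest mitochondrial share, 0.971% of the total, whose part was not tested. Without that library the median was 0.11 over all members, 0.44 for H2A (10 of 11 above 0), 0.12 for H3, -0.05 for H4 and -0.39 for H2B (3 of 12 above 0). The H2A median stayed above the H2B median there, and the difference between classes was not tested. The median over all members was 0.18 without KO control replicate 2 and 0.91 without KO control replicate 1.

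H4C11 had 2.17 and 9.22 normalized counts in the KO control, 6.33 and 89.5 in JDP2 clone 1, and 20.5 and 40.4 in clone 2. One knockout library lay between the controls and 3 lay above. H4C11 differed by 2.28 ± 1.04 (SE) on the log2 scale (limma adjusted p = 0.294), or by 1.44 without KO control replicate 1 and 3.13 without KO control replicate 2. H3C7 had 13 and 1.32 in the KO control, 19 and 119 in clone 1, and 12.8 and 13.5 in clone 2, which overlap, with a log2 difference of 2.21 ± 1.09 (SE; limma adjusted p = 0.324). That of H3C7 was 3.51 without KO control replicate 1, 0.91 without KO control replicate 2 and 1.48 without JDP2 clone 1 replicate 2. H2AC14 had 25.3 and 147 in clone 1 and 16.6 and 57.2 in clone 2, all above its KO control values, with a log2 difference of 1.87 ± 0.88 (SE) and a limma adjusted p of 0.306.

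H2AC20 had 198 and 1067 normalized counts in JDP2 clone 1, and 193 and 280 in clone 2, against 129 and 101 in the KO control. The groups did not overlap, although wild type (208) and an shRNA control library (195) reached into the knockout range. H2AC20 differed by 1.51 ± 0.62 (SE) on the log2 scale (limma adjusted p = 0.266), or by 0.95 without JDP2 clone 1 replicate 2.

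In 6 members all JDP2 libraries were above both controls (H3C13, H2AC20, H2AC21, H1-10, H2AC4 and H2AC14), which is 15.8% of those tested, against 13% of all genes, and in 2 (H1-2 and H2BC15) all were below, against 13.8% of all genes. The authors' deposited table for JDP2 holds 5 members at an adjusted p under 0.05, all higher (H2AC21, H4C11, H2AC14, H1-10 and H2AC20, with log2 fold changes of 1.42, 1.32, 1.32, 1.28 and 1.18), where 7.55% of genes were higher. In the fits here ATF7 and JDP2 were set against the same 2 KO control libraries, so likeness between the members listed for them is not independent. The authors' comparisons are labelled as against controls, without naming the libraries. Their calls may therefore rest on other controls than the fits here.

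**Figure D4:**
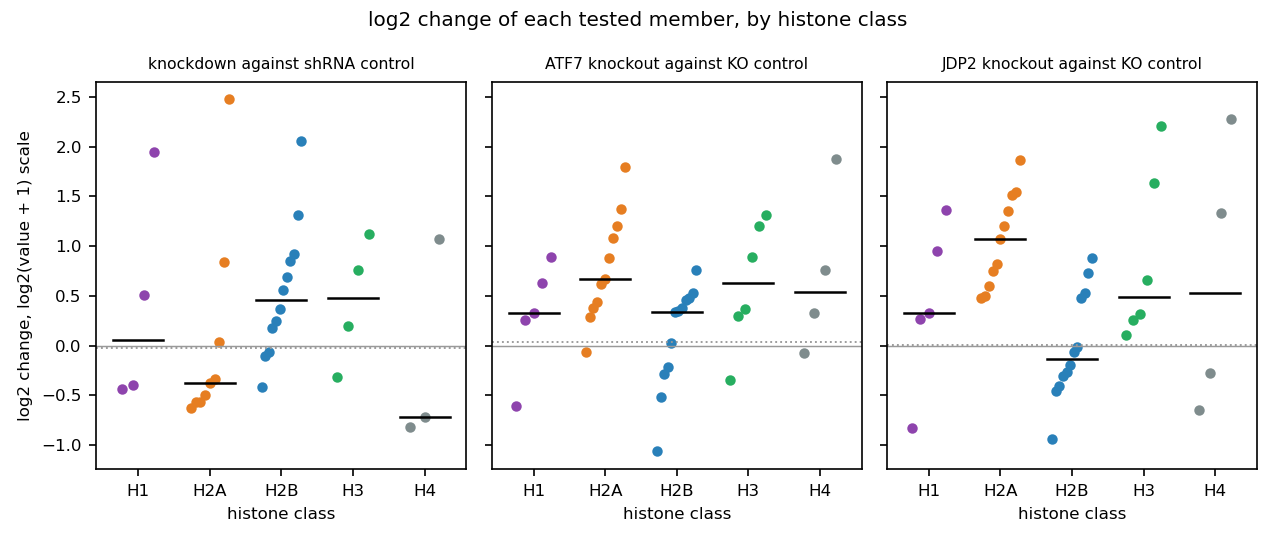
Points give the log2 difference of each tested member on the log2(value + 1) scale in 3 comparisons, by histone class, with class medians as bars, 0 as a grey line and the median of all genes as a dotted line. In the JDP2 panel all 11 H2A members lie above 0 and 8 of 12 H2B members lie below it.

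Within the knockout arm, H1-10 had 14756 and 11774 normalized counts in the KO control. The 4 clone libraries numbered 1 had 16062, 15709, 15715 and 16038, and the 4 numbered 2 had 32274, 43640, 122462 and 43542. H2AC25 was 144 to 218 in the clone libraries numbered 1 and 406 to 996 in those numbered 2, against 215 and 244 in the KO control. For both genes the higher level belonged to the second library of every clone, ATF7 and JDP2 alike. Of the KO control libraries, the second was the lower for H1-10 and the higher for H2AC25. The labels do not say what the numbers stand for, and their part in the differences was not tested. The log2 difference of H1-10 was 0.89 ± 0.72 (SE) for ATF7 and 1.37 ± 0.72 (SE) for JDP2, with limma adjusted p-values of 0.813 and 0.350.

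The hairpins were also compared with each other. Of 32 members tested 0 were called by limma, as were 0% of all 12738 genes, and 6 members had an unadjusted p under 0.05 (H2AC20, H2AC6, H2BC21, H3C10, H2BC18 and H2AC17), which is 18.8% of members, against 7.2% of all genes. The median log2 difference of shRNA 2 against shRNA 1 was 0.85, with 29 of 32 members above 0, against 0.03 for all genes. In 9 members (28.1%) every shRNA 2 library was higher than every shRNA 1 library, against 6.06% of all genes, and in 1 (H2BC15) every library was lower, against 7.2%. Equal library totals moved the median of all genes to -0.32 and gave a member median of 0.54. Both edgeR and DESeq2 called 0 members, and 0% and 0.196% of all genes. The library labelled shRNA 2 replicate 3 was not alone in this, since the median was 0.60 without it and 0.46 without replicate 3 of both hairpins.

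H2BC21, an H2B gene, was 1 of these 6 members. It had 66, 92.4 and 109 normalized counts with shRNA 1 and 83.4, 248 and 844 with shRNA 2, with 75.6 and 82.5 in the shRNA control. The groups overlapped at the lowest shRNA 2 library. The hairpins differed by 1.57 ± 0.64 (SE) on the log2 scale (limma adjusted p = 0.589). H2AC20 had 81.6, 104 and 48.1 with shRNA 1 and 153, 199.6 and 148 with shRNA 2, with no overlap, and the hairpins differed by 1.14 ± 0.38 (SE; limma adjusted p = 0.589).

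Clones of the same knockout were compared as well. Between the ATF7 clones 0 of 38 members were called, where 0.303% of genes were called, and the median log2 difference of clone 2 against clone 1 was -0.02, with all 6 H3 members above 0 (median 0.79) and 10 of 12 H2B members below it (median -0.49). H1-2, at 244 and 319 in clone 1 and 83.3 and 182 in clone 2, was 1 of 3 members with an unadjusted p under 0.05, beside H2BC12 and H2BC15, which is 7.89% of members, against 6.62% of all genes. Between the JDP2 clones 0 of 38 members were called, where 0.136% of genes were called, and 35 members were lower in clone 2, with a median of -0.98 and 4 members (H3C12, H4C9, H2AC13 and H2BC5) at an unadjusted p under 0.05 (10.5%, against 2.48% of all genes). In both clone comparisons edgeR and DESeq2 called 0 members, while they called 0.197% and 1.66% of all genes between the ATF7 clones and 0.136% and 0.401% between the JDP2 clones. Without JDP2 clone 1 replicate 2 that median was -0.07. Without JDP2 clone 1 replicate 1 it was -1.94, and 3 members (H2AC13, H2AC20 and H4C9) were called lower, with 1.03% of genes, in a fit where clone 1 had 1 library, assumed to vary like the rest.

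Some head-to-head partners had log2 differences of opposite sign. H2BC21 and H2AC20, whose start sites are 235 bases apart and whose promoter sequences are printed above, had log2 differences of 0.92 and -0.56 in the knockdown, -0.52 and 1.21 in the ATF7 knockout, and -0.46 and 1.51 in the JDP2 knockout. H2BC12 and H2AC12, 247 bases apart, had 1.32 and -0.33 in the knockdown and -0.28 and 0.62 in the ATF7 knockout, but 0.48 and 0.82, of the same sign, in the JDP2 knockout. Among the H2A and H2B pairs with both genes tested, the signs were opposite in 5 of 7 in the knockdown, 3 of 6 in the ATF7 knockout and 3 of 6 in the JDP2 knockout. Of these pairs, the H2A gene had the higher log2 difference in 2 of 7 in the knockdown, 4 of 6 in the ATF7 knockout and 5 of 6 in the JDP2 knockout. No difference within a pair was tested.

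**Figure D5:**
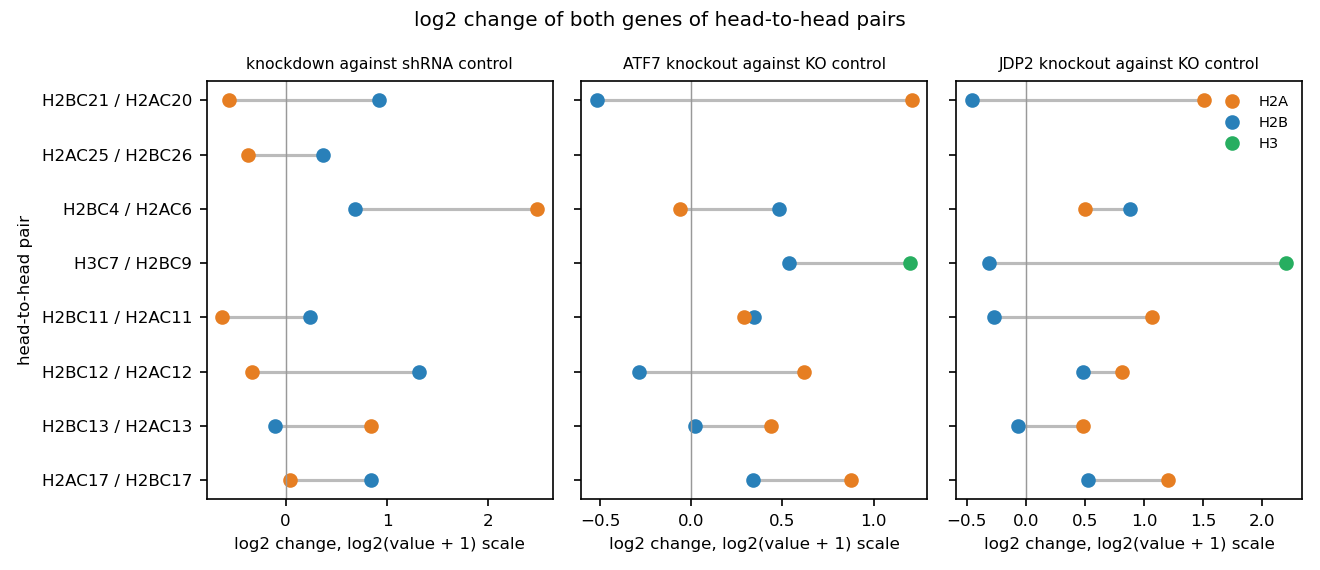
Each line joins the log2 differences, on the log2(value + 1) scale, of both genes of a head-to-head pair in 3 comparisons, with points coloured by histone class. The H2B gene H2BC21 lies right of its partner H2AC20 in the knockdown (0.92 and -0.56) and left of it in both knockouts.

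The genes that make, process and use histone messages gave few calls. In the knockdown, by limma, 0 of 31 tested genes of histone message transcription and processing, 0 of 27 histone chaperones, 0 of 48 S-phase replication genes and 0 of 10 replication-independent histone variants were called, with 2, 1, 1 and 0 genes at an unadjusted p under 0.05. Their log2 differences were below 0 for 43 of 48 S-phase genes (median -0.30) and 23 of 27 chaperones (median -0.26), against a median of -0.03 for all genes. The S-phase sums overlapped, at 356066 and 281498 in the shRNA control and 131003 to 289686 in the knockdown. The lowest was shRNA 1 replicate 3, a library far from the median. DUT, which keeps uracil out of DNA, differed by -0.88 ± 0.46 (SE), MCM7, a subunit of the replicative helicase, by -0.66 ± 0.46 (SE), and the chaperones NCL and ANP32B by -0.59 and -0.48. CPSF1, of the cleavage machinery, differed by -0.76, UPF1, of histone message decay, by -0.08, and the variants H3-3B and H2AX by 0.31 and -0.20.

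In both knockouts H2AZ1, the gene of the variant H2A.Z, was the only called gene of these lists. It had 21516 and 23425 normalized counts in the KO control, 3104 to 5488 in the ATF7 clones and 3592 to 6735 in the JDP2 clones, with log2 differences of -2.52 ± 0.31 (SE) and -2.35 ± 0.31 (SE) and limma adjusted p-values of 0.0118 and 0.00808. The other controls, with 7972, 4914 and 4463, lay near the clones, while shRNA 1 replicate 1 (24498) and the library labelled shRNA 2 replicate 3 (15426) were also high. With all 5 controls the log2 differences were -1.31 and -1.15, with limma adjusted p-values of 0.369 and 0.112. Without KO control replicate 1 the log2 differences were as large, at -2.58 and -2.41, with limma adjusted p-values of 0.309 and 0.170. Without KO control replicate 2 they were -2.46 and -2.29, with 0.295 and 0.202. Without ATF7 clone 1 replicate 1 the ATF7 difference was -2.40, with a limma adjusted p of 0.0545. Among the remaining genes SLBP, the stem-loop binding protein, differed by 0.72 in the ATF7 knockout and 1.01 in the JDP2 knockout, with limma adjusted p-values of 0.682 and 0.203. S-phase genes were above 0 for 24 of 48 in the ATF7 knockout and 26 of 48 in the JDP2 knockout, with medians of 0.00906 and 0.05. The list of 25 other RNAs without a poly(A) tail had 0 genes in the table used here.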

How the data were processed

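Values came from a gene table deposited by the authors, whose normalized signal is the read count divided by a size factor per library, and 3 comparison tables with a base mean signal, log2 fold change, log2 standard error, Wald score and p-value. Reads were counted with featureCounts on hg38 and normalized with DESeq2, tools that appear in the submitters' processing notes without versions. No source used here gives the aligner, annotation or strand setting. Of 21 libraries in the labels, 2 marked as low quality were not analysed here. In each library 100% of values were whole multiples of 1 step (tolerance 0.01), so read counts were recovered from the deposited table, at 28650241 to 60196382 reads per library.

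Genes with a mean of at least 10 normalized counts were tested with limma 3.58.1 (R 4.3.3) on log2(value + 1), which understates changes of low genes, calling a gene at an adjusted p (Benjamini-Hochberg) under 0.05. For the knockdown the fit held the shRNA control and both hairpins, and the knockout fit held the KO control and all clones, with hairpins or clones of a target as 1 group. Separate fits, with each hairpin or clone as its own group, gave the comparisons within a target. Alternatives used another pseudocount (10), no filter, other scalings, edgeR 4.0.16 and DESeq2 1.42.0 on recovered reads, a replicate block, all 5 controls, and left-out libraries. The limma fits of the knockdown and of the ATF7 knockout were tested on simulated data, with changes given to more abundant genes. At a simulated log2 change of 1 they called 7.46% and 2.99% of the changed genes, and at 2 they called 68.7% and 61.2%. A lack of calls therefore does not show that members did not change.

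Members and gene lists were chosen with earlier results of these data known. The values of 1 member are not reported here, and sums over 72 members leave out it and H1-10. Genes named are the 2 highest members of each class, called members or else the 3 with the largest difference per comparison, H1-10, the targeted genes, and from each list the called genes or the 2 highest. Members with an unadjusted p under 0.05, those the authors' table called, members of non-overlapping or head-to-head sets, and H2BC21, H2AC20, H2AC21 and SLBP were named after their values were seen. Annotation came from GENCODE v29 transcripts, and coordinates and promoters from RefSeq GRCh38.p14.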

Additional observations from a re-analysis of the deposited data

Results flagged for a closer look

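In 80 sets of 4 to 6 libraries, the highest and the lowest library were set against Dixon's 95% critical value on the log2 scale, and 7 sets held a library far from the others. Chance gives about 1 in 20. In the JDP2 clones 5 of them were clone 1 replicate 2. Its sum over the 72 members was 7822.54 normalized counts, against 2299.87 to 2697 in the other JDP2 libraries. Its H4 sum was 794, against 96 to 101 there, and its H3 sum 643, against 129 to 168. H3C7 stood at 119, against 12.8 to 19, and H1-2 lay below the others at 74.6, against 196 to 211. In the knockdown, H1-10 was lowest in shRNA 1 replicate 3 at 5258, against 14403 to 21418 in the other 5 libraries. Among the 5 controls, H3C7 was lowest in KO control replicate 2 at 1.32, below the level of 3 reads there, against 11.9 to 17.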

How the results depend on the processing

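Among the counts and medians of the 6 comparisons, 198 recomputed values differed from the reported one by less than the spread between libraries (medians) or 1.5 times (counts), and 16 by more. That spread was wide in the knockdown (SD 0.49) and the JDP2 knockout (SD 1.02), whose medians ran from -0.18 to 0.46 and from 0.11 to 0.92 within it. The cause of the moves was not tested. The number of knockdown members called went from 0 to 2 with all 5 controls, to 2 with DESeq2 and to 1 (H1-2) without the 3 libraries far from the median, a setting chosen after seeing the data. The ATF7 median was -0.023 after quantile normalization and 0.25 to 0.71 with single libraries left out. The hairpin median was 0.37 with no filter and 1.31 after quantile normalization. The ATF7 clone median was 0.20 with no filter, -0.83 after quantile normalization and -0.30 to 0.19 with single libraries left out. Between the JDP2 clones 0 to 3 members were called and the median was -1.94 to -0.066 with single libraries left out, and -0.066 without the 3 libraries.

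Of the named genes, 11 values changed sign, all of differences that had not passed the test. With single libraries left out, H2AC6 ranged from -0.65 to 0.52 in ATF7 and from -0.086 to 1.08 in JDP2, H2BC12 from -0.74 to 0.17 in ATF7, H3C10 from -0.17 to 0.75 in ATF7 and from -0.14 to 0.78 in JDP2, H3C3 from -0.40 to 0.79 in the knockdown, and H3C7 from -0.10 to 2.50 in ATF7. With all 5 controls H2BC12 in ATF7 was 0.10. After quantile normalization H3C10 in ATF7 was -0.091 and H3C3 in the knockdown -0.097.

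With the replicate number as a block, limma called 0 members in each of the 6 comparisons, and H2AC6 in the knockdown was 2.35 (adjusted p = 0.293). Same-numbered libraries had deviations from their group means that correlated at -0.29 to 0.42 in the knockdown arm and -0.58 to 0.58 in the knockout arm. With 2 libraries per group in the knockout arm, the values for different numbers mirror these. That range therefore cannot tell whether the numbers pair libraries, and the main fits took no pairing. A level under 3 reads was not detectable in a library, and the part of depth in the low number of calls was not tested.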
